A study of Mus musculus with 24 samples.

Results

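The comparison described here set Carma3xpA/+ embryoid bodies at day 10 (d10) against wild type embryoid bodies of the same day. It uses 6 of the 24 libraries of the study, 3 per genotype, and takes genes on chromosome 11 apart from all others. All cells were mouse embryonic stem cells of strain 129/Sv. They had been kept on mouse embryonic feeder fibroblasts in serum and LIF, and were then aggregated in hanging drops and collected at d3, d6 and d10, with undifferentiated cells as d0. Carma is a long noncoding RNA gene, and in the usual notation the genotype means that 1 of its alleles carries a cassette of 3 polyadenylation signals, which ends transcription early. The other allele is unaltered, and the wild type libraries carry no cassette. The series design calls the 3 libraries of each group biological replicates. The labels do not say whether they came from separate clones or separate cultures. The p-values therefore speak of the spread among the libraries sequenced, which may be technical. All records used are protein-coding, and Carma itself was not analysed here, so the targeted gene could not check the genotype labels.

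Embryonic stem cells aggregated without LIF form embryoid bodies, in which the germ layers arise side by side and patches of mesoderm mature into beating cardiomyocytes. The contractile unit of these cells is the sarcomere, built from actin, myosin, troponin and their anchoring proteins. Embryoid bodies also hold fibroblasts, endothelium, blood cells, macrophages, endoderm, neural cells and leftover undifferentiated cells. In bulk RNA of such a mixture, fewer cells of a type and less RNA per cell cannot be told apart.

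Levels are FPKM (fragments scaled by transcript length and by the library total). Summed FPKM was 277065 to 306848 in the 6 libraries, and 11321 to 11921 genes reached 1 FPKM. The read depth behind the values is unknown. Pearson correlations across genes were 0.9895 to 0.9931 between wild type libraries, 0.9712 to 0.9890 between Carma3xpA/+ libraries and 0.9704 to 0.9816 between genotypes. Replicate 2 of Carma3xpA/+ had the highest summed FPKM and the fewest genes at 1 FPKM. A gene was called when its limma p, adjusted by Benjamini-Hochberg over 13373 tested genes, was under 0.05. The spread of each gene was pooled over the 8 groups of the study, so SE and p do not come from d10 alone. Groups in which a gene is near 0 FPKM hold little spread and can lower its pooled value. Log2 differences are Carma3xpA/+ minus wild type on the log2(FPKM + 1) scale, which understates changes of low genes, and a fold is the mean FPKM of one genotype divided by that of the other.

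At d10, 1453 genes were called (10.9%). Of all tested genes, 662 (4.95%) were called higher and 791 (5.91%) lower in Carma3xpA/+. The higher calls were unevenly placed. Chromosome 11 held 249 of them among its 1085 tested genes (22.9%) and 24 lower calls (2.21%). Outside chromosome 11, 413 of 12288 genes were called higher (3.36%) and 767 lower (6.24%). The median log2 difference was 0.22 on chromosome 11 and -0.04 outside it, and the medians of the other chromosomes ran from -0.08 to -0.02. Without replicate 3 of wild type 776 genes were called, and with only the 6 libraries of d10 in the fit 701.

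**Figure D1:**
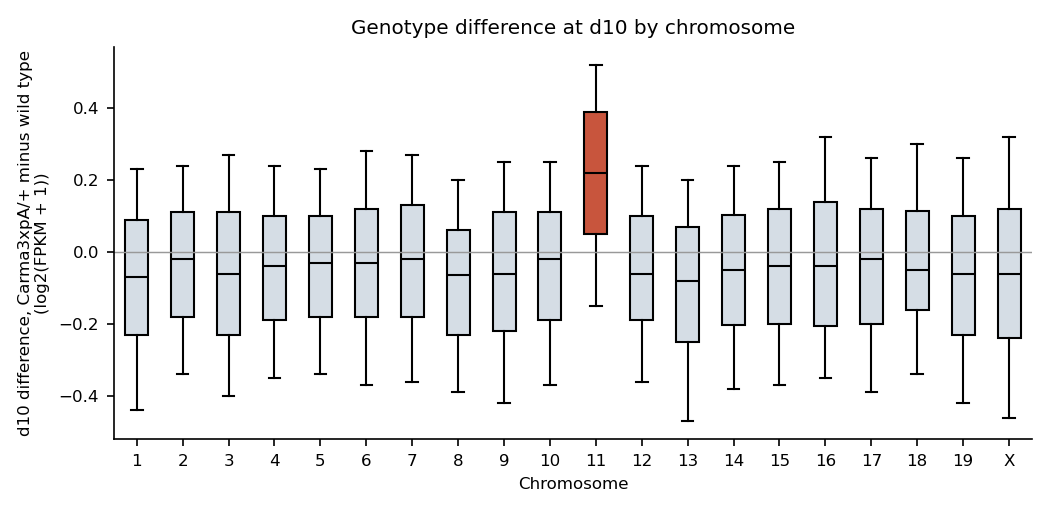
Log2 differences (Carma3xpA/+ minus wild type, log2(FPKM + 1) scale) of tested genes at d10 for each chromosome. Boxes show quartiles with the median as a line, whiskers reach the 10th and 90th percentiles, and chromosome 11 is in red. Its median is 0.22, whereas those of the other chromosomes lie between -0.08 and -0.02.

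Genes of chromosome 11 were higher as a body rather than in 1 region. Over the 673 genes that averaged 5 FPKM or more, the ratio of group means (Carma3xpA/+ over wild type) had a median of 1.24 and quartiles of 1.11 and 1.38. The ratio was above 1 for 599 genes (89%). Over 6444 genes outside chromosome 11 the median was 0.996 and 49% lay above 1. In windows of 10 Mb along the chromosome, the median log2 difference was positive in all 13, from 0.15 to 0.28, and the highest came from the window with the fewest genes, 16. The share of chromosome 11 genes called higher rose with level, from 11.3% of genes under 2 FPKM in wild type to 42% of those at 50 FPKM and over. In the same 4 level classes outside chromosome 11, from low to high, 4.86%, 2.59%, 3.24% and 3.5% were called higher.

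The raised level was seen in each library. Each library's level was expressed as the median ratio to the wild type mean over chromosome 11 genes, divided by the same median over all other genes. At d10 this was 1.26, 1.22 and 1.24 in Carma3xpA/+ and 1, 1 and 0.995 in wild type, so the groups did not overlap. It was also 1.26, 1.25 and 1.24 at d6 and 1.31, 1.31 and 1.32 at d3. At d0 it was 1.05, 1.25 and 1.25, with replicate 1 standing apart from every other Carma3xpA/+ library. That d0 library enters the d10 comparison through the shared estimate of spread and through the filter on low values, which passed 13329 genes without it. Without it 2383 genes were called at d10 in place of 1453, while the chromosome 11 median stayed at 0.22.

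**Figure D2:**
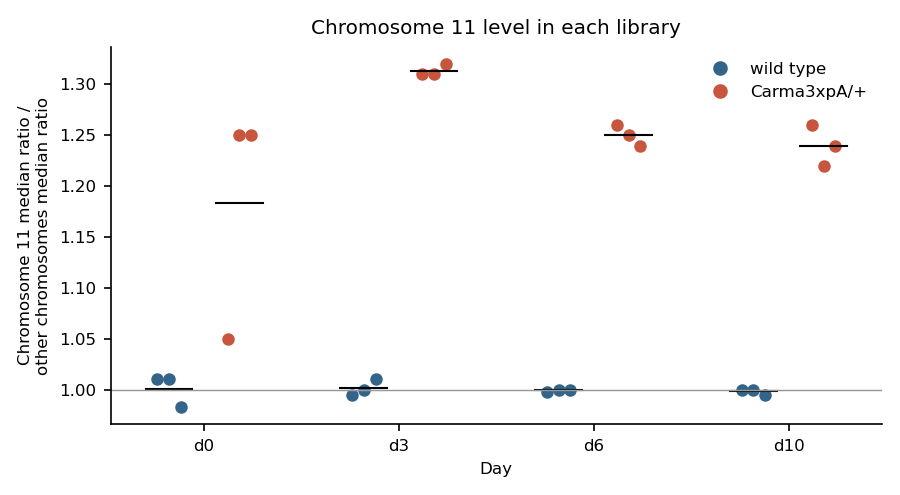
Median ratio of chromosome 11 genes to the wild type mean of the same day, divided by the median ratio of all other genes (y axis), in each of the 24 libraries by day (x axis). Points are libraries and black lines are group means. The 3 Carma3xpA/+ libraries of d10 sit between 1.22 and 1.26, and replicate 1 of d0 sits at 1.05.

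Of the 249 chromosome 11 genes called higher at d10, 140 (56.2%) were also called higher at d0, 141 (56.6%) at d3 and 101 (40.6%) at d6. These are 58.1%, 58% and 45.1% of the chromosome 11 genes called higher on those days, which were 22.2%, 22.4% and 20.6% of the tested ones. The days share the cell lines but no library. Their tests also share each gene's pooled spread, so a gene with little spread is more readily called on every day. The overlaps between days, and the calls on all 4 days, are therefore not independent repeats. Outside chromosome 11, 27.1%, 22.8% and 17.2% of the 413 genes were called higher on those days, where 8.41%, 2.96% and 2.86% of all tested genes were. These are 10.8%, 25.8% and 20.2% of each day's own list. Of the same 413 genes 12 were called lower at d0, 0 at d3 and 29 at d6. On chromosome 11, 54 genes were called higher on all 4 days, among them Birc5, an inhibitor of apoptosis that acts in mitosis, and Acadvl, which starts the oxidation of long fatty acids. Grb10, an imprinted adaptor of the insulin receptor, was the single chromosome 11 gene called lower on all 4 days. Its d10 level was 67.7, 68.2 and 76.9 FPKM in wild type and 46.2, 41.3 and 38.9 FPKM in Carma3xpA/+. The d10 call of Grb10 was lost on leaving out any of 3 libraries, and that of Acadvl any of 4.

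Several chromosome 11 genes differed by far more than the chromosome's median. Calcoco2, a receptor for selective autophagy, was at 1.72, 1.90 and 0.692 FPKM in wild type and 7.39, 4.24 and 8.87 FPKM in Carma3xpA/+, a log2 difference of 1.67 ± 0.22 (SE, limma adjusted p = 2.57e-05). Upp1, uridine phosphorylase, had 12.9, 12.4 and 9.64 FPKM against 32.2, 32.8 and 43.1 FPKM, a 3.09-fold ratio of means (adjusted p = 1.75e-07, limma). Pgam2, the muscle form of phosphoglycerate mutase, was 2.33-fold higher at 54.5 ± 7.78 FPKM (SD, n = 3). Calcoco2, Upp1 and Pgam2 were chosen among genes whose genotypes did not overlap, which held for 14.4% of all tested genes in that direction. Among the lower ones were Cd300c2, a receptor of myeloid cells, at 6.48 ± 0.595 FPKM in wild type and 2.00 ± 0.459 FPKM in Carma3xpA/+, and Krt14, a keratin of basal epithelium, at 7.72 ± 1.25 and 2.70 ± 0.883 FPKM. The most abundant raised genes were Myl7, Npm1 and Ppia. Npm1, a nucleolar chaperone, was 1.27-fold higher and Ppia, cyclophilin A, 1.31-fold higher, both close to the chromosome's median ratio of 1.24. Each of these 2 calls was lost on leaving out any of 5 of the 6 d10 libraries.

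Genes of the cardiac sarcomere were higher in Carma3xpA/+ at d10. Of 28 tested list members 21 were called higher and none lower, with a median log2 difference of 0.72 beside -0.03 over all tested genes. Of all tested genes 4.95% were called higher and 5.91% lower, and these shares apply to each d10 list count below. At an unadjusted limma p under 0.05 there were 22 higher and 0 lower. Among the 25 members outside chromosome 11, 18 were called higher with a median of 0.69, and all 3 on chromosome 11, Myl7, Myl4 and Tcap, were called higher. Summed over the list, the level was 1012 to 1306 FPKM in wild type and 1914 to 2684 FPKM in Carma3xpA/+. Without replicate 3 of wild type, or without replicate 3 of Carma3xpA/+, the count was 13 of the list, and with only the d10 libraries in the fit it was 10.

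Actc1, cardiac alpha-actin, the main thin filament protein of the early heart, was at 209, 200 and 129 FPKM in wild type and 538, 347 and 549 FPKM in Carma3xpA/+. Every Carma3xpA/+ library exceeded every wild type library. The log2 difference was 1.41 ± 0.29 (SE, limma adjusted p = 0.00241). Reads of Actc1 and of its close relative Acta1, skeletal alpha-actin, may be hard to assign, so both values are uncertain to that extent. Acta1 was at 24.3, 23.3 and 16.3 FPKM in wild type and 58.2, 48.4 and 68.2 FPKM in Carma3xpA/+, a 2.73-fold ratio of means (limma adjusted p = 0.00249).

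Myl7, the atrial regulatory myosin light chain on chromosome 11, was at 274, 254 and 204 FPKM in wild type and 712, 565 and 797 FPKM in Carma3xpA/+. Its ratio of 2.83 lay well above the chromosome's median ratio of 1.24. Myl4, the atrial essential light chain on the same chromosome, rose 2.63-fold, from 37.1 ± 4.68 to 97.4 ± 17.5 FPKM (SD, n = 3). Tcap, which anchors titin at the Z disc, was at 3.78, 2.82 and 1.23 FPKM against 10.6, 4.23 and 8.50 FPKM. For Tcap the lowest Carma3xpA/+ library was close to the highest wild type library, without overlap.

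Myh7, Myh6, Tnnt2 and Tnni3 had ratios between 1.64 and 2.00. Myh7, the slow heavy chain that dominates the embryonic ventricle, had 8.38, 8.10 and 6.28 FPKM in wild type and 16.2, 13.4 and 15.9 FPKM in Carma3xpA/+ (log2 difference 0.92 ± 0.12, limma adjusted p = 1.84e-05). Myh6, the fast heavy chain, had 39.0, 36.4 and 27.2 FPKM against 75.5, 36.8 and 66.4 FPKM. Replicate 2 of Carma3xpA/+ thus lay within the wild type range for Myh6. Tnnt2, cardiac troponin T, was at 26.7, 28.5 and 20.1 FPKM against 51.9, 28.6 and 54.5 FPKM, again with replicate 2 next to the wild type values. Tnni3, cardiac troponin I, was 1.64-fold higher at 50.4 ± 9.61 FPKM. Myh6, Tnnt2 and Tnni3 were called with all libraries but lost the call without replicate 3 of either genotype. Myl2, the ventricular regulatory light chain, was at 76.4, 72.4 and 36.0 FPKM against 105, 80.3 and 119 FPKM and was not called (limma adjusted p = 0.0733).

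The proximal promoters of 4 muscle genes with higher calls are printed because they share a sequence feature, found after the calls were known. Acta1 is not in the sarcomere list, and the other 3 are. Each line gives the 150 bases that end at the base before the gene's annotated start (RefSeq, GRCm38.p6), 5′ to 3′ on the gene's own strand. The capitals mark the CArG box, the motif that serum response factor is known to bind, which reads as the same pattern on both strands.
Actc1, chr2:114052876-114053025, minus strand: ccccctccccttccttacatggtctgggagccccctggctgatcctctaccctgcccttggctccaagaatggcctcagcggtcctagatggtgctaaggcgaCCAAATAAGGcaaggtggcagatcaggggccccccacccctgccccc
Acta1, chr8:123894776-123894925, minus strand: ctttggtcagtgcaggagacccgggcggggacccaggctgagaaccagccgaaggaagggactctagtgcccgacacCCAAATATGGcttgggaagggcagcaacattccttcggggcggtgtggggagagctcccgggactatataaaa
Myl7, chr11:5898783-5898932, minus strand: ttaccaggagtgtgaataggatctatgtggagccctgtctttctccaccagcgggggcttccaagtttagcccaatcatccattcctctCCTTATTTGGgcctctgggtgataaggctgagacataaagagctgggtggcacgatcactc
Myl3, chr9:110763528-110763677, plus strand: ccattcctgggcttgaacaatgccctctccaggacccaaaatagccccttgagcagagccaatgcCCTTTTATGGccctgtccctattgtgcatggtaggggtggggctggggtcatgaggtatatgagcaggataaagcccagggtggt

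In the promoter table, whose windows run from 250 bases before to 50 bases after each start, the CArG box occurred in 439 of 27025 genes (1.62%). It occurred in 160 of the 10251 genes tested at d10 that the table holds (1.56%), in 6 of 27 sarcomere members (22.2%) and in 5 of the 19 called higher (26.3%). Myl3, an essential myosin light chain, was chosen for printing after its values were seen. It was at 55.2, 53.8 and 42.9 FPKM in wild type and 85.1, 90.8 and 105 FPKM in Carma3xpA/+. A match describes these letters and was not tested as a binding site.

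Natriuretic peptides and stretch-responsive genes were also higher: 5 of 11 were called higher and none lower, beside 4.95% and 5.91% of all tested genes. That count was 3 without replicate 3 of either genotype, 1 with a pseudocount of 0.1 and 1 with only the d10 libraries. Nppa, atrial natriuretic peptide, was at 6.39, 5.07 and 2.95 FPKM in wild type and 16.5, 7.6 and 14.9 FPKM in Carma3xpA/+ (log2 difference 1.25 ± 0.22, limma adjusted p = 0.000539). Because Nppa was listed at 0 FPKM at d0 and d3 in both genotypes, its SE and p do not measure the spread at d10 alone. Nppb, the related B-type peptide, was 1.90-fold higher and lost the call without replicate 3 of either genotype. Csrp3, a muscle LIM protein that sits at the Z disc, was 2.03-fold higher.

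Among cardiac transcription factors 5 of 30 were called higher and none lower, with a median log2 difference of 0.25. The shares over all tested genes were 4.95% higher and 5.91% lower. The count of higher members was 9 without replicate 2 of Carma3xpA/+, 3 without replicate 3 of either genotype and 1 with only the d10 libraries. Quantile normalization gave 10 higher and 1 lower. Gata5, a zinc finger factor of the early heart whose gene lies near Carma, was at 1.25, 1.24 and 1.02 FPKM in wild type and 3.72, 1.92 and 2.89 FPKM in Carma3xpA/+ (log2 difference 0.80 ± 0.12, limma adjusted p = 0.000113). Because Gata5 was near 0 FPKM at d0 and d3 in both genotypes, its SE and p do not measure the spread at d10 alone. Smyd1, a muscle histone methyltransferase, was 2.15-fold higher at 11.2 ± 2.85 FPKM. Nkx2-5, a homeobox factor of cardiac progenitors, was at 3.11, 3.29 and 2.28 FPKM against 5.96, 3.71 and 6.38 FPKM. Its call (limma adjusted p = 0.00992) was lost without replicate 3 of either genotype. Meis1 and Tbx5 were the other members called, and Tbx5 lost its call on leaving out any of 4 libraries.

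Other factors of the cardiac programme were not called. Gata4, a partner of Nkx2-5, was at 20.6, 9.21 and 29.0 FPKM in wild type and 6.73, 30.1 and 11.9 FPKM in Carma3xpA/+, with full overlap. Hand2, a factor of the second heart field, was at 40.8 ± 1.92 FPKM in wild type and 28.8 ± 1.83 FPKM in Carma3xpA/+ (limma adjusted p = 0.061). Gata6, Hand1, Isl1, Mef2c and Myocd had adjusted p-values of 0.846, 0.825, 0.356, 0.302 and 0.285 (limma). Of the 19 tested coding genes around Carma, Gata5 was the single higher call and Lama5, a laminin chain of basement membranes, the single lower call, at 8.45 ± 0.694 FPKM in wild type and 4.74 ± 0.648 FPKM in Carma3xpA/+.

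Of 20 calcium handling and ion channel genes 2 were called higher, Casq1 and Gja5, and none lower. The count of higher members was 10 without replicate 2 of Carma3xpA/+, 5 under quantile normalization and 0 with only the d10 libraries. Casq1, a calcium store protein, was at 2.48, 2.30 and 1.85 FPKM in wild type and 9.42, 2.99 and 7.08 FPKM in Carma3xpA/+. Among smooth muscle contractile genes 4 of 19 were called higher and none lower. For both lists, the shares over all tested genes were 4.95% higher and 5.91% lower. Cnn1, calponin, was at 10.3, 13.4 and 6.25 FPKM against 24.5, 23.4 and 32.7 FPKM (log2 difference 1.39 ± 0.18, limma adjusted p = 2.53e-05). Acta2, smooth muscle actin and the most abundant of the list, was not called (limma adjusted p = 0.573).

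Skeletal muscle genes split: 6 of 11 were called higher and 2 lower, with 3 higher without replicate 3 of Carma3xpA/+. Myog, a skeletal muscle differentiation factor, was at 0.36, 0.277 and 0.122 FPKM in wild type and 1.34, 1.36 and 1.83 FPKM in Carma3xpA/+, low in both. Mylpf, the fast skeletal light chain, was 3.01-fold higher at 17.2 ± 3.92 FPKM. Tnni2, fast skeletal troponin I, was lower at 2.65 ± 0.474 FPKM against 6.25 ± 0.108 FPKM, and Tnnt3, fast skeletal troponin T, was the other lower call.

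**Figure D3:**
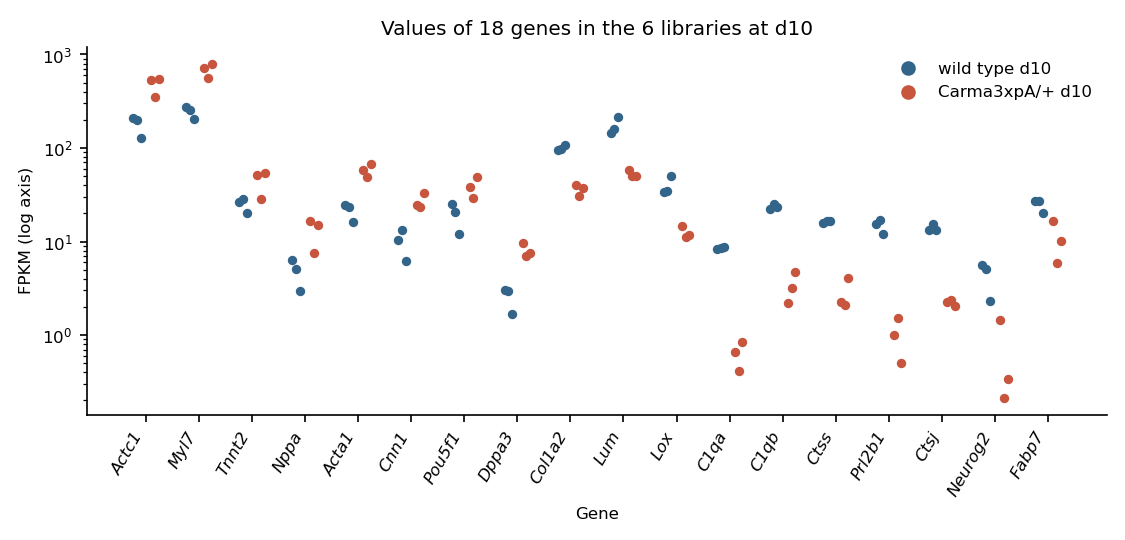
FPKM (log axis) of 18 named genes in each of the 6 libraries at d10, with wild type in blue and Carma3xpA/+ in red, 1 point per library in replicate order. Actc1 is at 129 to 209 FPKM in wild type and 347 to 549 FPKM in Carma3xpA/+, and C1qa at 8.35 to 8.73 and 0.408 to 0.84 FPKM.

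Macrophage genes were much lower in Carma3xpA/+. Of 21 tested members 17 were called lower and none higher, with a median log2 difference of -1.33. At an unadjusted limma p under 0.05 there were 18 lower and 0 higher. The level summed over the list was 267 to 285 FPKM in wild type and 90.5 to 123 FPKM in Carma3xpA/+. C1qa, a chain of the complement component C1q that macrophages make, was at 8.35, 8.62 and 8.73 FPKM in wild type and 0.656, 0.408 and 0.84 FPKM in Carma3xpA/+. That is a 13.5-fold lower mean, with a log2 difference of -2.56 ± 0.07 (SE, limma adjusted p = 2.97e-15). C1qa was at or near 0 FPKM at d0, d3 and d6. Its pooled SE and p therefore do not measure the spread at d10 alone. The partner chains C1qb and C1qc were 6.94-fold and 9.75-fold lower.

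Ctss, a lysosomal protease of antigen-presenting cells, was at 15.7, 16.4 and 16.6 FPKM in wild type and 2.23, 2.11 and 4.03 FPKM in Carma3xpA/+. Mpeg1, a pore-forming protein of macrophages, was 4.97-fold lower at 1.59 ± 0.39 FPKM. Spi1, the transcription factor that directs myeloid fate, was at 4.34, 3.59 and 3.38 FPKM against 1.14, 1.18 and 2.32 FPKM. The genotypes did not overlap for these genes, which held for 14.6% of all tested genes in that direction. Ctss and Mpeg1 were named under a rule that required it, so for them nothing is read from it. Leaving out any 1 of the d10 libraries left 13 to 17 of the list called lower. Erythroid and blood progenitor genes had 2 of 27 called lower at d10, Spi1 among them, and none higher. Of all tested genes, 5.91% were called lower. At d6, 11 of the 27 were called lower and none higher, beside 3.48% and 4.3% of all tested genes. The change of the genotype difference from d6 to d10 was called higher for 6 and lower for none, beside 1.51% and 2.71% of all tested genes.

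Among fibroblast and extracellular matrix genes 14 of 30 were called lower and 3 higher, with a median log2 difference of -0.60. The list sum was 1715 to 1944 FPKM in wild type and 1242 to 1277 FPKM in Carma3xpA/+. Lum, lumican, a proteoglycan that spaces collagen fibrils, was at 146, 158 and 212 FPKM in wild type and 58.5, 49.7 and 50 FPKM in Carma3xpA/+. The log2 difference was -1.67 ± 0.14 (SE, limma adjusted p = 9.3e-08). Lum was near 0 FPKM at d0 and d3 in both genotypes, so its SE and p have the limit given for C1qa. Dcn, decorin, a proteoglycan of the same kind, was 3.15-fold lower, and Lox, which cross-links collagen, 3.18-fold lower.

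The 2 chains of type I collagen both had lower means in Carma3xpA/+, but only 1 was called. Col1a2 was at 94.4, 97.6 and 109 FPKM in wild type and 40, 30.9 and 37.6 FPKM in Carma3xpA/+ (limma adjusted p = 0.000116). Col1a1, on chromosome 11, was at 188, 195 and 217 FPKM against 140, 106 and 125 FPKM. Its libraries did not overlap either, but it was not called (limma adjusted p = 0.348). Its SE of 0.44 pools all days, with 53.3 ± 26.7 FPKM in wild type at d6 (SD, n = 3). The 2 calls therefore do not contrast the chains at d10. The 3 higher members were transcription factors of mesenchyme, Twist1 with a log2 difference of 0.89, Prrx1 with 0.60 and Tcf21 with 0.48. They were named after their values were seen. The count of lower members was 9 without replicate 3 of wild type and 9 without replicate 2 of Carma3xpA/+, and 8 with a pseudocount of 0.1. The cells had been kept on feeder fibroblasts before aggregation, and any part of those cells in these values was not tested.

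Among epicardial and mesothelial genes 6 of 11 were lower and 2 higher. The summed list did not follow the lower calls, at 198 to 202 FPKM in wild type and 194, 339 and 265 FPKM in Carma3xpA/+. Upk1b, a mesothelial tetraspanin, was at 16.1, 15.1 and 12.3 FPKM in wild type and 4.14, 6.02 and 4.92 FPKM in Carma3xpA/+ (log2 difference -1.37 ± 0.10, limma adjusted p = 6.8e-09). Upk1b was near 0 FPKM at d0 and d3 in both genotypes, so its SE and p have the limit given for C1qa. Aldh1a2, which makes retinoic acid in mesoderm, was higher at 3.46 ± 0.829 FPKM against 1.55 ± 0.0304 FPKM. Among epithelial genes 8 of 26 were lower and none higher, with Esrp2, an epithelial splicing factor, 1.74-fold lower. The epithelial count was 4 or 5 on leaving out any 1 of 4 d10 libraries. The summed epithelial list ran from 1529 to 2557 FPKM there and from 1982 to 2076 FPKM in wild type.

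Of 20 trophoblast and placental genes 7 were called lower and 1 higher, and 3 or 4 were lower on leaving out any 1 of the wild type d10 libraries. The summed list overlapped, at 446, 728 and 633 FPKM in Carma3xpA/+ and 480 to 567 FPKM in wild type. Prl2b1, a prolactin family hormone of the placenta, was at 15.3, 16.8 and 12 FPKM in wild type and 0.998, 1.51 and 0.507 FPKM in Carma3xpA/+, a 14.6-fold lower mean (log2 difference -2.99 ± 0.15, limma adjusted p = 4.49e-11). Prl3b1, placental lactogen, was 10.8-fold lower. Prl2b1 was listed at 0 FPKM at d0 and d3 in both genotypes, so its SE and p have the limit given for C1qa. Ctsj, a placental cathepsin, was at 13.4, 15.5 and 13.3 FPKM against 2.27, 2.38 and 2.04 FPKM. Prl2b1 and Ctsj are not in the trophoblast list, and Prl3b1 is. The prolactin and cathepsin genes of chromosome 13 are families of close relatives, so reads may be shared among them and each single value is uncertain. The 1 higher call was Plac1, a placental gene named after its values were seen, with a log2 difference of 0.71.

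Neural genes were lower: 12 of 28 were called lower and 1, Zic2, higher, with a median log2 difference of -0.48. Neurog2, a factor that starts neuron formation, was at 5.57, 5.05 and 2.31 FPKM in wild type and 1.44, 0.213 and 0.342 FPKM in Carma3xpA/+. Fabp7, a fatty acid carrier of radial glia, was at 27.0, 26.8 and 20.0 FPKM against 16.7, 5.89 and 10.1 FPKM. Hes5, a Notch target of neural progenitors, was 4.54-fold lower. Replicate 1 was the highest Carma3xpA/+ library for these 3 genes and still lay under the wild type values. The summed neural list overlapped, at 222, 132 and 169 FPKM in Carma3xpA/+ and 212 to 257 FPKM in wild type.

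Pluripotency genes were higher: 15 of 33 were called higher and none lower, with a median log2 difference of 0.60, except that median-of-ratios scaling gave 1 lower call. None of the 33 lies on chromosome 11. Pou5f1 (Oct4), the central factor of the pluripotent state, was at 25.3, 20.6 and 11.9 FPKM in wild type and 38.6, 29.1 and 48.6 FPKM in Carma3xpA/+. Its call (limma adjusted p = 0.0108) was lost without replicate 3 of either genotype. Tdgf1, a co-receptor for Nodal, was 2.63-fold higher at 21.9 ± 6.92 FPKM, and Utf1, a chromatin factor of stem cells, 2.58-fold higher. At an unadjusted limma p under 0.05, 21 members were higher and 3 lower.

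Germ cell genes were also higher, with 8 of 20 called higher and none lower. Stra8, a gene of meiotic entry, was at 0.792, 0.824 and 0.457 FPKM in wild type and 7.65, 3.57 and 7.59 FPKM in Carma3xpA/+ (log2 difference 2.05 ± 0.26, limma adjusted p = 1.41e-05). Dppa3, a maternal factor that protects DNA methylation marks, was at 3.00, 2.94 and 1.69 FPKM against 9.64, 7.08 and 7.54 FPKM. Tuba3a, a testis form of alpha-tubulin with a near-identical copy, was at 2.00, 2.60 and 1.21 FPKM against 11.4, 11.9 and 14.4 FPKM. Tuba3a is not in the germ cell list. Mael, which silences transposons in germ cells, was 4.99-fold higher at 2.27 ± 0.321 FPKM. The groups did not overlap for any of these 4 genes, which held for 14.4% of all tested genes in that direction. Stra8, Dppa3 and Tuba3a were named under a rule that required it, so for them nothing is read from it.

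Endothelial genes were higher in smaller steps: 11 of 26 were called higher and none lower, with a median log2 difference of 0.33. Of the members called higher 3 lie on chromosome 11. Plvap, a protein of endothelial diaphragms, was at 4.63, 3.69 and 2.83 FPKM in wild type and 9.20, 6.49 and 7.48 FPKM in Carma3xpA/+ (log2 difference 0.89 ± 0.22, limma adjusted p = 0.00939). The Plvap call was lost without replicate 3 of wild type. Sox18, an endothelial transcription factor, was 2.00-fold higher. Kdr, the VEGF receptor of endothelial progenitors, was not called (limma adjusted p = 0.708). Without replicate 3 of wild type the count of higher members was 3, and without replicate 3 of Carma3xpA/+ it was 6.

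Interferon-stimulated genes were lower, with 10 of 27 called lower and none higher. Ifitm3, an antiviral membrane protein, was at 154, 164 and 173 FPKM in wild type and 78.9, 106 and 101 FPKM in Carma3xpA/+. Ifit1, an antiviral RNA-binding protein with close relatives, was at 16.3, 16.9 and 23.1 FPKM against 4.01, 12 and 8.28 FPKM, and lost its call without 1 of 2 libraries. The list count was between 3 and 14 when 1 library was left out. The summed interferon list overlapped, at 672 to 1084 FPKM in Carma3xpA/+ and 1044 to 1336 FPKM in wild type. Among glycolysis and hypoxia genes 9 of 30 were higher and none lower, 2 of them on chromosome 11, and 3 or 4 were higher on leaving out any 1 of 4 d10 libraries. Ldha, lactate dehydrogenase, was at 270, 286 and 304 FPKM against 383, 519 and 418 FPKM. None of 49 ribosomal protein genes and none of 13 mitochondrially encoded genes was called by limma at d10. At an unadjusted p under 0.05 there were 4 higher ribosomal genes and 1 lower mitochondrial gene. Quantile normalization gave 3 higher ribosomal calls and 5 higher glycolysis calls.

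**Figure D4:**
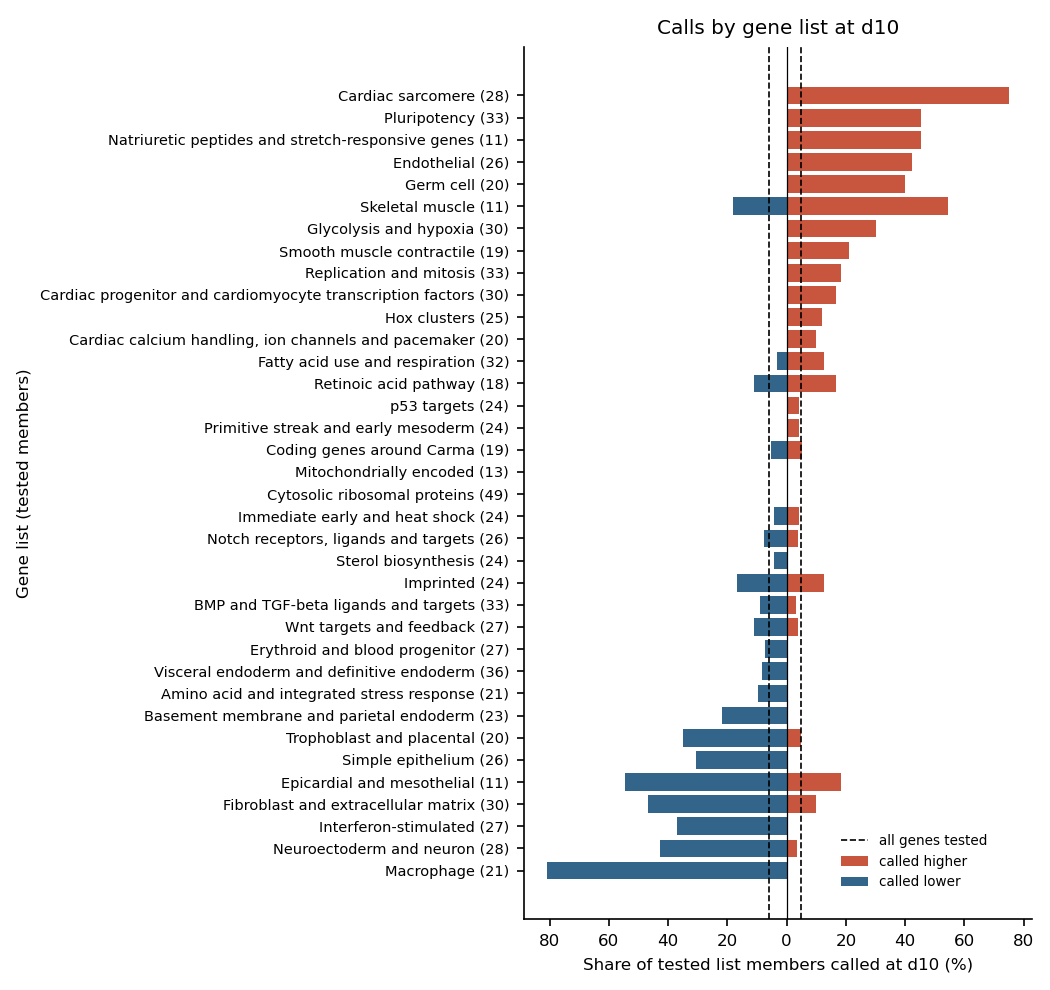
Share of tested members called higher (red, right) or lower (blue, left) in Carma3xpA/+ at d10 for 36 gene lists, with the number tested in brackets. Dashed lines mark the shares over all tested genes, 4.95% higher and 5.91% lower. Cardiac sarcomere genes (21 of 28) lie at the top and macrophage genes (17 of 21 lower) at the bottom.

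Endoderm genes ranged widely between the Carma3xpA/+ libraries. The summed endoderm list was 921 to 3047 FPKM in Carma3xpA/+ and 1470 to 2201 FPKM in wild type, lowest in replicate 1 and highest in replicate 2 of Carma3xpA/+. Afp, alpha-fetoprotein of visceral endoderm, was at 244, 273 and 422 FPKM in wild type and 153, 524 and 400 FPKM in Carma3xpA/+ and was not called (limma adjusted p = 0.925). For Afp the sign of the log2 difference of 0.06 turned under quantile normalization. Replicate 2, with the most endoderm signal, was also the Carma3xpA/+ library with the lowest sarcomere sum, 1914 FPKM, which was above all wild type sums. The part of these cell types in the other results was not tested.

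The sarcomere difference at d10 was not present at d6. At d6, none of the 28 members was called higher and 11 were called lower, with a median log2 difference of -0.35, where 4.3% of all tested genes were called higher and 3.48% lower. The change of the genotype difference from d6 to d10 was itself tested with an interaction term, and 20 of the 28 were called higher and none lower, beside 1.51% and 2.71% of all tested genes. Myl7 was at 422 ± 75.8 FPKM in wild type and 345 ± 41.4 FPKM in Carma3xpA/+ at d6, and at 244 ± 36.2 and 691 ± 118 FPKM at d10. The wild type mean of Actc1 was 214 ± 23.9 FPKM at d6 and 179 ± 43.6 FPKM at d10, whereas that of Carma3xpA/+ was 181 ± 13 and then 478 ± 114 FPKM. Myh7 reversed: it was called lower at d6 (log2 difference -0.56, limma adjusted p = 0.00449) and higher at d10 (0.92).

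Macrophage and placental genes took another course. C1qa was listed at 0 in all libraries of both genotypes at d6, and 13 of 21 macrophage genes were called lower in the interaction. At d6, 3 of the 21 were already called lower and 1 higher, beside 3.48% and 4.3% of all tested genes. Spi1, outside that list, was called lower at d6 too (log2 difference -0.84, limma adjusted p = 0.000212). Its change to d10 was not called (limma adjusted p = 0.86). Prl2b1 was at 0.524 ± 0.341 FPKM in wild type and 0.506 ± 0.135 FPKM in Carma3xpA/+ at d6. Lum, in contrast, was already lower at d6, at 13.5 ± 3.23 FPKM in wild type and 2.73 ± 0.292 FPKM in Carma3xpA/+, and its log2 difference did not pass the test of a change (limma adjusted p = 0.586). Endoderm genes had 14 of 36 called higher at d6 and none higher and 3 lower at d10. For Hox genes the counts were 17 of 25 higher at d6 and 3 higher at d10, 2 of these on chromosome 11. The d10 count for Hox genes was 5 under median-of-ratios scaling, 5 when scaled on genes outside chromosome 11 and 7 under quantile normalization, and 8 without replicate 2 of Carma3xpA/+.

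**Figure D5:**
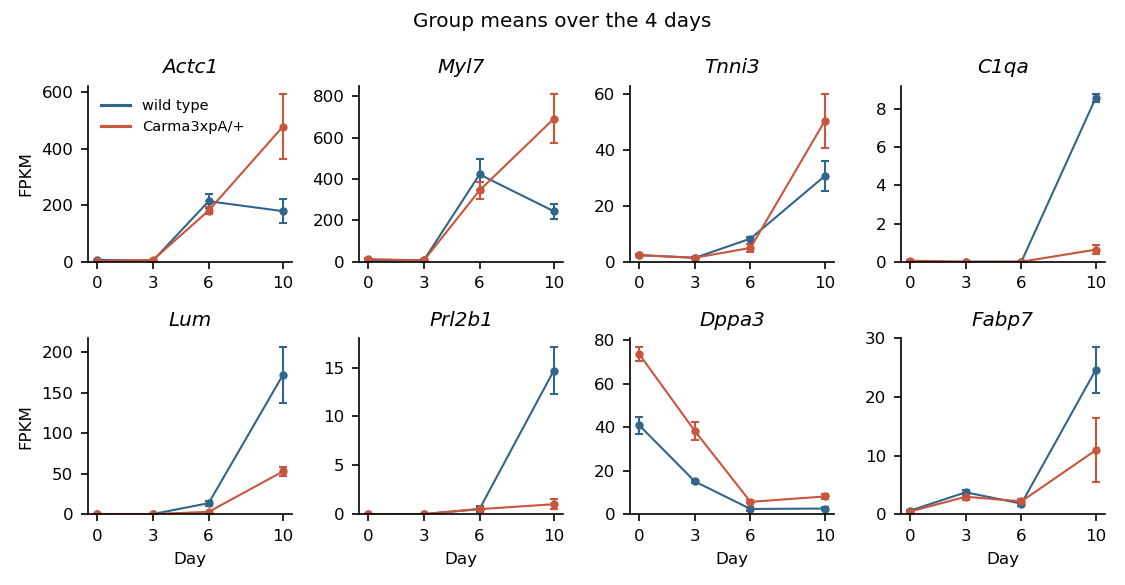
Group mean FPKM with SD (n = 3) for 8 genes at d0, d3, d6 and d10, wild type in blue and Carma3xpA/+ in red. Myl7 falls from 422 to 244 FPKM between d6 and d10 in wild type and is at 345 and then 691 FPKM in Carma3xpA/+, whereas Dppa3 is higher in Carma3xpA/+ on each day.

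A small set of genes outside chromosome 11 was called on all 4 days, 17 higher and 10 lower. The tests of the 4 days share each gene's pooled spread and are not independent. Among the higher genes were Tuba3a, Dppa3, Rpl39l, Cbr3 and Fmr1nb. The d10 call of Cbr3 was lost without replicate 3 of wild type. Fmr1nb, an X-linked gene expressed in testis, was at 11.1, 12 and 8.61 FPKM in wild type and 23.2, 37.2 and 37.0 FPKM in Carma3xpA/+ at d10. Dppa3 was at 40.9 ± 3.91 FPKM in wild type and 73.6 ± 3.39 FPKM in Carma3xpA/+ at d0. Of the 10 lower genes 8 lie on chromosome 9, in a stretch (chr9:77430823-114474898, mm10) that holds 225 tested genes, of which 26 were called lower and 4 higher at d10. The rest of the chromosome had 34 of 496 called lower. The median log2 difference was -0.06 in the stretch and -0.05 in the rest, and the bounds of the stretch were set by the 8 genes themselves. Among them Senp6, a SUMO protease, was at 10.5, 10.6 and 11.2 FPKM against 5.33, 3.35 and 4.18 FPKM. Tmem30a, a subunit of lipid flippases, was 2.75-fold lower and Slc17a5, a lysosomal sialic acid exporter, 2.47-fold lower.

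Across genes, the log2 differences of d10 and those of d0, d3 and d6 had Pearson correlations of 0.34, 0.31 and 0.32 over the 1085 genes of chromosome 11. Over the 12288 other genes they were 0.23, 0.22 and 0.22. These describe genes of the same cell lines in separate libraries, and genes are not independent replicates. Of the 767 genes outside chromosome 11 called lower at d10, 141 (18.4%) were called lower at d6, 31.6% of the d6 list, and 12 were called higher there. At d6, 3.63% of all tested genes outside chromosome 11 were called lower. The calls of d6 and d10 share each gene's pooled spread, so their overlap is not an independent repeat.

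Several other genes outside chromosome 11 were among the largest differences. Crabp1, a carrier of retinoic acid, was at 15.7, 16.8 and 18 FPKM in wild type and 65.8, 29.6 and 46.9 FPKM in Carma3xpA/+. Car3, a muscle and fat carbonic anhydrase, was at 6.42, 6.09 and 2.70 FPKM against 16.8, 10.2 and 15.3 FPKM. Gdf6, a BMP family ligand of joints, was at 6.93, 7.30 and 8.68 FPKM against 2.00, 1.16 and 1.74 FPKM, a 4.67-fold lower mean (log2 difference -1.72 ± 0.11, limma adjusted p = 8.87e-10). Gdf6 was near 0 FPKM at d0 and d3 in both genotypes, so its SE and p have the limit given for C1qa. Nepn, nephrocan, a secreted leucine-rich protein, was 3.61-fold lower. Itm2a, Psap and Eef1a1 were among the abundant genes called lower outside chromosome 11. The Eef1a1 call was lost on leaving out any of 5 d10 libraries. Itm2a was at 307, 332 and 395 FPKM against 209, 221 and 216 FPKM.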

How the data were processed

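RNA of 24 libraries was measured by polyadenylated RNA sequencing (stranded, dUTP method), per the labels' protocols. The submitters' processing notes list HISAT2, StringTie, cutadapt and FastQC, and mm10 as the build. Neither versions nor annotation is given in the sources used here. Gene values were deposited as FPKM, per the file headers. FPKM holds no read count, and a search for whole-read steps found only 2 of 646 low genes sharing a ratio, so depth is unknown. The transcript table was not used here. The gene table holds 14737 protein-coding records, and 15 symbols are shared by 2 records.

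The tests ran on log2(FPKM + 1), with no rescaling. Genes at 1 FPKM or more in at least 3 of 24 libraries entered a linear model (limma 3.58.1, R 4.3.3) with 1 mean per group over 8 groups (16 residual degrees of freedom) and a trend of variance on level. Contrasts were the genotype difference on each day and its change from d6 to d10, two-sided, Benjamini-Hochberg adjusted over 13373 genes. The fit was tested on simulated data. Ratios per library used genes averaging 5 FPKM or more.

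The 36 gene lists (942 symbols, 840 tested) and the named genes were chosen with earlier results of these data known. Named genes were called genes of at least 5 FPKM without overlap (the 12 largest each way outside chromosome 11, and the 8 largest higher and 4 largest lower on it), the 3 most abundant each way, up to 4 members per list, 25 fixed genes, the 4 largest changes from d6 each way, and 5 genes each way called on all days. A few of the genes chosen this way are not reported here. Alternatives were a pseudocount of 0.1, quantile normalization, median-of-ratios scaling, no filter or one at 5 FPKM, scaling without chromosome 11, only the d10 libraries, no d0 libraries, the replicate number as a block, library weights, an absolute log2 of at least 1, and leaving out each library. Leaving out replicate 1 of Carma3xpA/+ at d0 was chosen after seeing the data. Promoters came from RefSeq (GRCm38.p6).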

Additional observations from a re-analysis of the deposited data

Results flagged for a closer look

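The genotype difference at d10 differed from that at d6 by the interaction test for 61 of the 146 named genes called at d10. Over all tested genes it called 1.51% higher and 2.71% lower. Many of the named genes were chosen for their large d10 differences, so nothing is read from that share. Those with the largest changes, and the 3 called in opposite directions on both days, are given with the change in log2 difference (d10 minus d6). Acta1, skeletal alpha-actin, changed by 1.90. Car3, a carbonic anhydrase, changed by 1.76. Myl7 and Nppa, both atrial muscle genes, each changed by 1.77. Myh7 changed by 1.48, Tnni3 by 1.36 and Gja5, a gap junction protein of the atrium, by 1.20. These 3 were lower at d6 and higher at d10. Apob, an apolipoprotein of endoderm, changed by -3.18 from a higher level at d6, although its d10 difference was not called. Prl2b1 changed by -2.99, C1qa by -2.56 and Ctsj by -2.29, each from about no difference at d6.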

How the results depend on the processing

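The cause of each shift was not tested. With a filter at 5 FPKM, which leaves fewer genes to test, 759 genes were called at d10, 9 of them lower on chromosome 11 and 543 outside it (268 higher, 275 lower). The change from d6 to d10 then had 190 calls against 565 in all, and the neural and trophoblast lists 3 lower members each. With only the d10 libraries, 701 were called, 516 outside chromosome 11 (168 higher, 348 lower), and lists together had 122 calls, with 10 higher sarcomere, 3 higher endothelial, 7 lower neural and 3 lower interferon members. With a pseudocount of 0.1, 511 genes outside chromosome 11 were lower and 235 changed from d6 to d10, with 11 higher sarcomere, 8 lower fibroblast and 5 lower interferon members. Without the d0 libraries, 1776 genes outside chromosome 11 were called (648 higher), 387 chromosome 11 genes were higher at d3 and 388 at d6, and 895 genes changed from d6 to d10.

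With library weights 6247 genes were called: 604 higher and 74 lower on chromosome 11 and 5569 outside it (2219 higher, 3350 lower). Chromosome 11 then had 439 higher genes at d0, 634 at d3 and 439 at d6, 2798 genes changed from d6 to d10, and lists had 504 calls, with 19 endothelial and 26 pluripotency members higher and 19 neural and 19 interferon members lower. At an absolute log2 of at least 1, 160 genes were called: 11 higher and 3 lower on chromosome 11 and 146 outside it (43 higher, 103 lower). Chromosome 11 then had 8, 10 and 7 higher genes at d0, d3 and d6, and 214 genes changed from d6 to d10. Lists had 59 calls: 5 higher sarcomere, 0 endothelial and 8 pluripotency members, and 6 lower fibroblast, 6 neural and 1 interferon member.

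Leaving out 1 library gave 776 to 2383 calls in all, 151 to 362 higher and 14 to 37 lower on chromosome 11, and 605 to 2054 outside it (191 to 712 higher, 414 to 1440 lower). Chromosome 11 genes called higher were 178 to 360 at d0, 151 to 394 at d3 and 108 to 406 at d6, and changes from d6 to d10 were 321 to 1075. Lists had 130 to 279 calls: sarcomere 13 to 22, endothelial 3 to 12 and pluripotency 11 to 19 higher, and fibroblast 9 to 16, macrophage 13 to 17, trophoblast 3 to 7, neural 8 to 15 and interferon 3 to 14 lower. Median log2 differences were 0.19 to 0.26 on chromosome 11 and -0.06 to -0.01 outside it. Without replicate 1 of Carma3xpA/+ at d0 there were 2383 calls. Of 146 named genes called, 103 held without any 1 d10 library and 43 did not.

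Replicate numbers did not pair the libraries: same-numbered d10 libraries deviated with correlations of 0.090, -0.103 and -0.062, and not every library correlated best with its own number. With the replicate block, 268 genes outside chromosome 11 and 6 endothelial members were higher at d10, and 134 chromosome 11 genes at d6. The Afp difference turned to -0.09 under quantile normalization, and to -0.09 and -0.01 without wild type replicate 1 or 2 and to -0.29 and -0.10 without Carma3xpA/+ replicate 2 or 3. That of Gata4 turned to 0.09 without Carma3xpA/+ replicate 1. Without 1 d10 library Afp ranged from -0.29 to 0.59 and Gata4 from -0.91 to 0.09, and neither was called.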

Other observations

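Replication and mitosis genes had 6 of 33 higher calls and none lower at d10, 3 of them on chromosome 11. The shares over all tested genes were 4.95% higher and 5.91% lower. Birc5, which acts in chromosome segregation, was at 28.3, 30.4 and 28.9 FPKM in wild type and 41.7, 47.6 and 41.1 FPKM in Carma3xpA/+. Aurkb, a mitotic kinase and partner of Birc5 on the same chromosome, was 1.4-fold higher. Gmnn, an inhibitor of origin licensing on chromosome 13, was at 37.9, 37.9 and 37.8 FPKM against 44, 53.2 and 54.2 FPKM. Its call was lost without replicate 3 of Carma3xpA/+. At an unadjusted limma p under 0.05, 15 members were higher and 3 lower. Trp53, on chromosome 11, was the single call among 24 tested genes of the p53 list, at 33.5 ± 2.68 FPKM in wild type and 44.9 ± 4.22 FPKM in Carma3xpA/+. That call was lost without replicate 3 of either genotype.

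Signalling lists had calls in both directions, where 4.95% of all tested genes were called higher and 5.91% lower. Of 33 BMP and TGF-beta genes 1 was higher and 3 lower, of 27 Wnt genes 1 and 3, of 26 Notch genes 1 and 2, and of 18 retinoic acid genes 3 and 2. Dkk2, a secreted Wnt modulator, was at 9.71, 10 and 10.5 FPKM in wild type and 7.71, 4.69 and 5.86 FPKM in Carma3xpA/+. Of 24 streak and early mesoderm genes 1 was called, Nodal, a ligand of early patterning, 2.38-fold higher. Basement membrane genes had 5 of 23 lower calls and none higher, with Col4a5, a collagen chain, 2.07-fold lower. Quantile normalization gave 8 lower and 3 higher calls, and scaling on genes outside chromosome 11 gave 5 lower and 1 higher. Imprinted genes had 3 higher and 4 lower calls of 24. Fatty acid and respiration genes had 4 higher and 1 lower of 32, Cpt1a, which carries fatty acids into mitochondria, being the lower one. Immediate early and heat shock genes had 1 higher and 1 lower of 24, amino acid stress genes 2 lower of 21, and sterol synthesis genes 1 lower of 24.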
